A study of Homo sapiens with 8 samples.

Results

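The outer 2 Mb of the chromosome arms were described here as 36 arm ends of 20 human autosomes in PC9 cells, a lung adenocarcinoma line with an activating EGFR mutation. The members were the first and the last 2 Mb of every hg19 autosome except chromosomes 19 and 22, with the long-arm end alone for the acrocentric chromosomes 13, 14, 15 and 21. They were cut into 10-kb tiles, which gave 7200 tiles and 72 Mb, or 2.33% of the 309555 tiles of all hg19 chromosomes. The rule uses position alone. H3K9me3, the trimethylation of lysine 9 on histone H3, was mapped by ChIP-seq in 3 states with 1 library each. The DTP + TSA library came from drug-tolerant persister (DTP) cells, those that survived 1 uM of the EGFR inhibitor erlotinib for 8 days, to which 50 nM of the histone deacetylase inhibitor trichostatin A (TSA) had been added for 5 h. The DTP library came from persisters of the same erlotinib exposure without TSA, and the parental library from untreated PC9 cells. All 3 are the same cell line, and nothing in the labels gives a second culture of any state. H3K4me3 was also mapped in 2 libraries of the series, and 3 more libraries are input; none of these was used here.

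H3K9me3 is the mark of constitutive heterochromatin. It is written by methyltransferases such as SETDB1 and the SUV39H enzymes and is bound by HP1 proteins, which help it to spread to neighbouring nucleosomes. Histone deacetylases take part in the same process, since an acetylated lysine 9 cannot be methylated. The subtelomeric ends of human chromosomes join telomeric repeats and duplicated blocks shared between chromosomes to GC-rich, gene-dense sequence, and several of them carry clusters of KRAB zinc finger genes, whose bodies are classical H3K9me3 domains in many cell types.

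The measure throughout was the covered share, the percentage of a tile or arm end lying inside the H3K9me3 intervals that the authors called and deposited for each library. The lists hold 53000 intervals in DTP + TSA, 47866 in DTP and 23842 in parental cells, over 179, 165 and 125 Mb. The arm ends hold 2944 of these intervals in DTP + TSA, 1863 in DTP and 970 in parental cells. Sequencing depth is unknown, and whether the input libraries entered the calls is not given in the sources used here. With 1 library per state there is no replicate error and no test. Counts of called arm ends and tiles are therefore set beside the same count over the rest of the same autosomes. The rest means the tiles or 2-Mb windows further in, without centromeric and heterochromatic bands. Under alternative settings these counts were made at the arm ends alone.

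Arm ends carried more H3K9me3 than the rest of their chromosomes in each of the 3 libraries. Over the 36 arm ends the covered share had a median of 20.3% in DTP + TSA, 10.1% in DTP and 5.86% in parental cells. The middle 50% of arm ends lay between 11.6% and 34.9% in DTP + TSA, between 6.58% and 17.3% in DTP, and between 4.86% and 10.5% in parental cells. These ranges overlap between neighbouring states, and within each state the middle range was wider than the difference to the neighbouring state's median. The 1228 windows of the rest had medians of 4.26% in DTP + TSA, 4.61% in DTP and 2.73% in parental cells, so the order of the 2 persister states was the other way round there. An arm end was covered more than the interior of its own chromosome in 33 of 36 cases in DTP + TSA, 31 in DTP and 31 in parental cells. Single windows further in were not set against their own chromosome in this way.

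**Figure D1:**
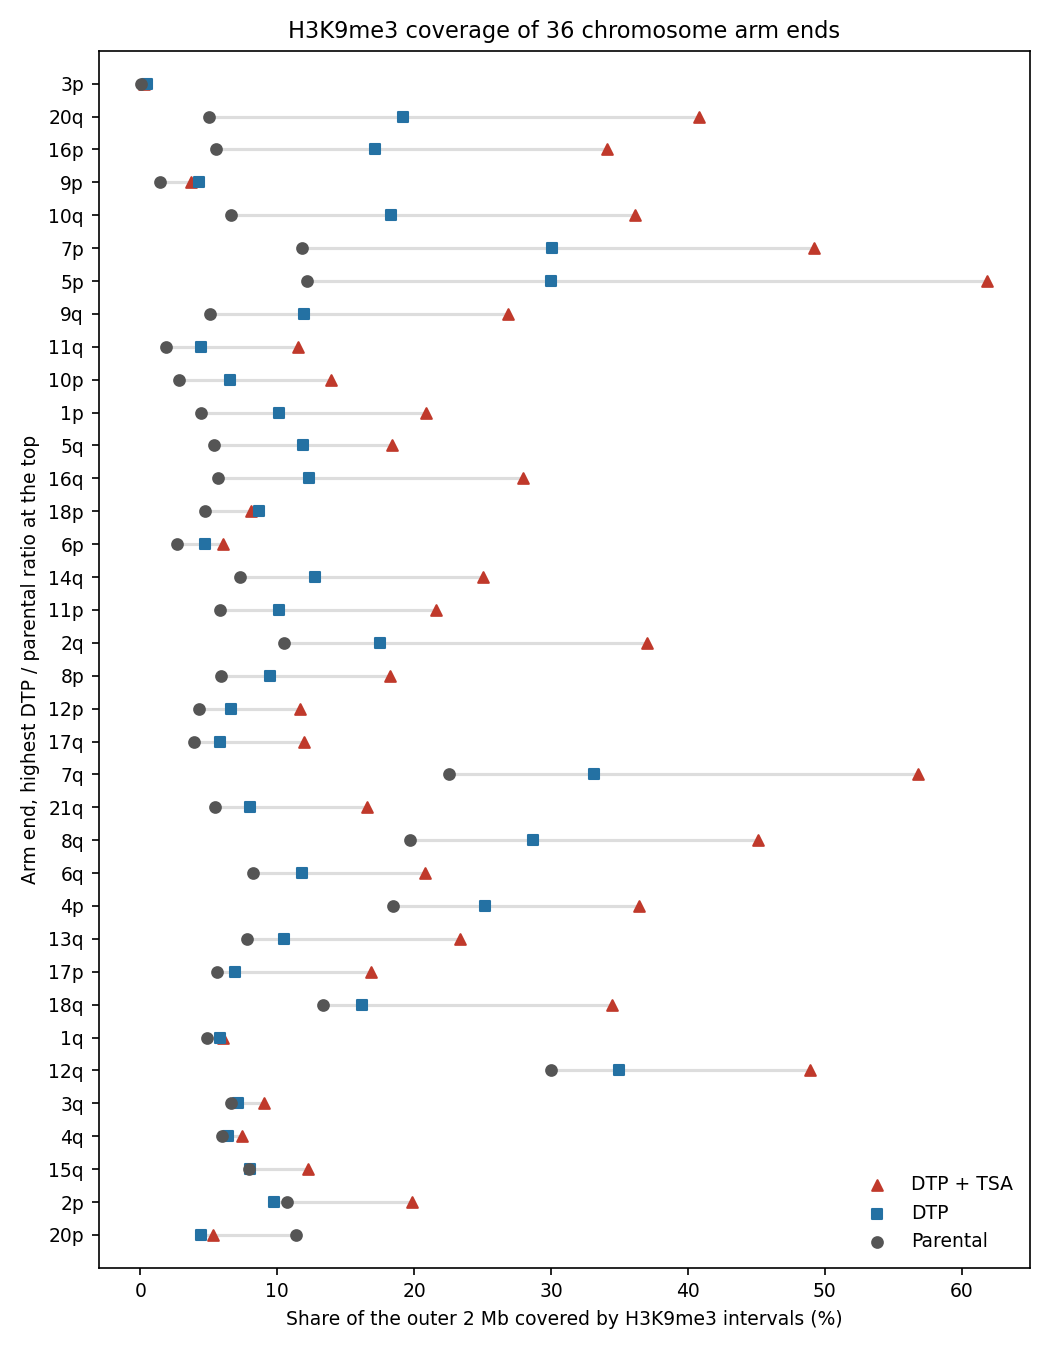
Covered share of the outer 2 Mb (x axis, %) for each of the 36 arm ends (y axis, ordered by the DTP over parental ratio, highest at the top); red triangles are DTP + TSA, blue squares DTP and grey circles parental, 1 library each. DTP lies right of parental at 34 arm ends and DTP + TSA lies right of DTP at 33; 20p, at the bottom, lies furthest left of its parental value.

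DTP cells had a higher covered share than parental cells at 34 of 36 arm ends, 94.4% of them, where 81% of the windows further in were covered more. The other 2, 20p and 2p, were covered less, 5.56% of the arm ends against 18.5% of the windows. In size, taken window by window, the difference was close to that of the other windows as a ratio and larger as length. A ratio of at least 1.5 was reached by 20 arm ends, 55.6%, against 54.2% of the windows, and a ratio of at least 2 by 13 arm ends, 36.1%, against 35.7%. These shares are near the background and are no result about arm ends. The median ratio was 1.64 at arm ends and 1.59 in the windows. The median gain in covered share was 3.66 percentage points at arm ends and 1.35 in the windows. Summed over the arm ends, the ratio of covered length was 1.61, against 1.30 in the rest. The lists differ in length. With the same number of the strongest intervals by mean signal taken from each, DTP exceeded parental cells at 16 arm ends. The windows further in were not counted under this cut. The summed ratio was then 1.08 at arm ends and 0.681 in the rest. With equal numbers by summit value it was 1.31 at arm ends and 0.794 in the rest. With the upper part of each list by mean signal the ratio of the arm ends was 1.30, against 1.31 in the rest.

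DTP + TSA cells stood apart from the rest of the genome more clearly. They were covered more than DTP cells at 33 of 36 arm ends, 91.7%, against 34.4% of the windows, and less at the other 3, 8.33%, against 65.5% of the windows. A ratio of at least 1.5 was reached by 26 arm ends, 72.2%, against 12.7% of the windows, and a ratio of at least 2 by 15 arm ends, 41.7%, against 4.4%. The median ratio was 1.94 at arm ends and 0.88 in the windows, and the median difference was 10.0 percentage points at arm ends and -0.53 in the windows. Most windows further in were thus covered less in DTP + TSA than in DTP cells, although their summed share was slightly higher, 5.34% against 5.18%, while most arm ends were covered more. The DTP library stands below the line in one comparison and above it in the other, so the 2 sets of ratios are not independent of each other.

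In 10-kb tiles the same contrast appeared at a finer grain. A tile was counted as gained when at least 2 kb of it was covered in the first library and at least 2 times as much as in the second, and as lost when the reverse held. Between DTP and parental cells 929 arm-end tiles were gained, 12.9%, against 6.75% of the tiles further in, and 260 were lost, 3.61%, against 3.8%. Between DTP + TSA and DTP cells 1316 were gained, 18.3%, against 2.97%, and 120 were lost, 1.67%, against 2.83%. Losses at arm ends were therefore near the background in the first comparison and below it in the second.

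The arm ends differed widely from each other in how far DTP exceeded parental cells. By the ratio the highest was 3p, the end with the cell adhesion gene CHL1, but it rests on very little length. It was 0.25% covered in DTP + TSA, 0.49% in DTP and 0.04% in parental cells, from 4, 6 and 1 intervals, and its ratio of 12.3 compares 9.8 kb with 0.8 kb. Next came 20q, the end with RTEL1, a helicase that protects telomeres, and GATA5, a transcription factor gene. It was covered to 40.8% in DTP + TSA, 19.2% in DTP and 5.04% in parental cells, a DTP over parental ratio of 3.81.

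The 16p end, with the alpha-globin genes HBA1 and HBA2 and the Wnt pathway inhibitor AXIN1, had 34.1% in DTP + TSA, 17.2% in DTP and 5.52% in parental cells, a DTP over parental ratio of 3.11. At 9p, which holds DMRT1, a transcription factor gene of testis development, the shares were 3.69%, 4.30% and 1.42% in the same order, and the ratio of 3.03 again rests on 28.4 kb in parental cells. The 10q end had 36.1% in DTP + TSA, 18.3% in DTP and 6.62% in parental cells, a DTP over parental ratio of 2.76. Of the 6 arm ends with the highest ratio, 20q, 16p, 10q and 7p thus had covered shares above the median arm end in both persister states. By contrast, 3p was nearly bare in all 3 libraries, and 9p was in DTP cells covered about as much as the median window further in. The 7p end, with PDGFA, a growth factor gene, and GPER1, a membrane estrogen receptor gene, had 49.2% in DTP + TSA, 30.1% in DTP and 11.8% in parental cells. Its DTP over parental ratio was 2.55, and its 18.3 percentage points were the largest DTP gain of any arm end.

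At the other end of the ranking, 20p was covered less in DTP cells. Its shares were 5.29% in DTP + TSA, 4.44% in DTP and 11.4% in parental cells, a DTP over parental ratio of 0.39. This arm end carries beta-defensin genes, which encode antimicrobial peptides, together with CSNK2A1, which encodes a kinase subunit, and SOX12. The missing length lay well inside the end. From 1.5 to 1.75 Mb it was 9.04% covered in DTP + TSA, 13.04% in DTP and 49.0% in parental cells, and from 1.25 to 1.5 Mb 5.84%, 5.52% and 17.5% in the same order. The other steps differed less: from 0.75 to 1 Mb the shares were 5.52% in DTP + TSA, 4.16% in DTP and 10.2% in parental cells, and over the outermost 250 kb 2.72%, 3.04% and 1.04%.

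The 2p end had 19.8% in DTP + TSA, 9.73% in DTP and 10.7% in parental cells, a DTP over parental ratio of 0.91. The 15q end had 12.3%, 7.99% and 7.94% in the same order, a ratio of 1.01. The 4q end, with DUX4, whose repeat array underlies facioscapulohumeral muscular dystrophy, had 7.41% in DTP + TSA, 6.39% in DTP and 5.95% in parental cells, a ratio of 1.07. Without replicates, 15q and 4q cannot be told apart from no difference, and both moved either way with the setting. With equal numbers of intervals by mean signal the ratio was 0.475 at 15q and 0.741 at 4q, and in the outer 1 Mb alone it was 3.18 at 15q and 1.46 at 4q. With the upper part of each list it was 0.760 at 15q and 1.71 at 4q.

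The ranking itself depended on the setting. Of the 6 arm ends with the highest DTP over parental ratio, 3 were again among the 6 highest in the outer 1 Mb and 3 with the upper part of each list. The 20q ratio stayed between 3.04 and 3.98 over the 6 alternatives. The ratio was as low as 1.83 at 16p in the outer 1 Mb, 1.59 at 10q with equal numbers by mean signal and 1.72 at 9p with equal numbers by summit value. At 3p it was 3.5 in 3 of the alternatives. The 20p ratio ran from 0.0728 with equal numbers by mean signal to 0.730 in the outer 1 Mb.

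The ranking by DTP + TSA over DTP was narrower at the top. The highest ratio was 2.61 at 11q, the end with B3GAT1, which makes the HNK-1 carbohydrate epitope, where 11.5% was covered in DTP + TSA, 4.41% in DTP and 1.89% in parental cells. The 17p end, with the 14-3-3 gene YWHAE, had 16.9% in DTP + TSA and 6.93% in DTP cells, a ratio of 2.43. The 16q end, with the melanocortin receptor gene MC1R, had 27.9% in DTP + TSA and 12.3% in DTP cells, a ratio of 2.26. These arm ends, together with 9q at 2.25, 13q at 2.23 and 11p at 2.14, thus had similar ratios from different DTP levels. This order was no firmer: 3 of the 6 were again among the 6 highest in the outer 1 Mb and 2 with the upper part of each list. The 9q end, which holds NOTCH1 and the histone H3 lysine 9 methyltransferase gene EHMT1, had 26.9% in DTP + TSA and 11.9% in DTP cells. The 13q end, with the coagulation factor gene F10, had 23.4% in DTP + TSA and 10.5% in DTP cells. At 11p, the end with HRAS, the shares were 21.6% in DTP + TSA and 10.1% in DTP cells. The interiors of these chromosomes differed in the same ratio. It was 1.64 for chromosome 17, the highest of any interior, 1.45 for 16, 1.14 for 9, 1.01 for 11 and 0.999 for 13. The higher ratio at 17p and 16q was thus in part shared with the rest of the chromosome.

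In percentage points the largest gain with TSA was 31.9 at 5p, the end with TERT, the catalytic subunit gene of telomerase, and the sodium-proton exchanger gene SLC9A3. It was covered to 61.9% in DTP + TSA, the highest share of any arm end in any of the 3 libraries, to 30.0% in DTP and to 12.2% in parental cells. There 87 tiles were gained with TSA and 0 were lost. The 7q end, with the neuropeptide receptor gene VIPR2 and PTPRN2, followed with 56.9% in DTP + TSA, 33.2% in DTP and 22.5% in parental cells.

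Few arm ends did not follow. The share in DTP + TSA against DTP cells was 6.07% against 5.79% at 1q, a ratio of 1.05, and 8.07% against 8.67% at 18p, which holds the thymidylate synthase gene TYMS, a ratio of 0.93. It was 3.69% against 4.30% at 9p, a ratio of 0.86, and 0.25% against 0.49% at 3p, a ratio of 0.51. Except for 18p, these ends were also among the 6 least covered in DTP cells, and the loss at 9p amounted to 0.61 percentage points. The differences at 1q, 18p, 9p and 3p are within 1 percentage point, and no replicate says how far such values vary. For 1q, 18p and 3p the ratio moved to the other side of 1 under at least 1 other setting.

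The covered length gained was unevenly divided among the arm ends. The net gain of DTP over parental cells was 3.55 Mb, and 7 arm ends held 50% of it. The 6 with the largest gains, 7p, 5p, 20q, 10q, 16p and 7q, held 45.3% of the summed gains. The net gain of DTP + TSA over DTP cells was 7.50 Mb, with 10 arm ends holding 50% of it, and the 6 largest, 5p, 7q, 20q, 2q, 7p and 18q, held 35.6% of the summed gains. The 2q end had 37.0% in DTP + TSA, 17.5% in DTP and 10.5% in parental cells, and the 18q end 34.5%, 16.2% and 13.4% in the same order. The ratio of an arm end was above that of its own chromosome's interior at 27 of 36 ends for DTP over parental, where the interiors ran from 1.00 to 2.19, and at 31 of 36 for DTP + TSA over DTP, where they ran from 0.839 to 1.64. No such count was made for single windows further in.

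The level of an arm end varied with little relation to that of the opposite end of its chromosome. Across the 16 chromosomes with both ends, the covered share at the p end and at the q end had a Pearson correlation of 0.02 in DTP + TSA, 0.13 in DTP and 0.01 in parental cells, with Spearman values of -0.08, -0.08 and -0.04. The order of the arm ends was in contrast similar in different libraries, which share the genome they were mapped to. Across the 36 arm ends the share in DTP and parental cells had a Pearson correlation of 0.83 and a Spearman correlation of 0.71.

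**Figure D2:**
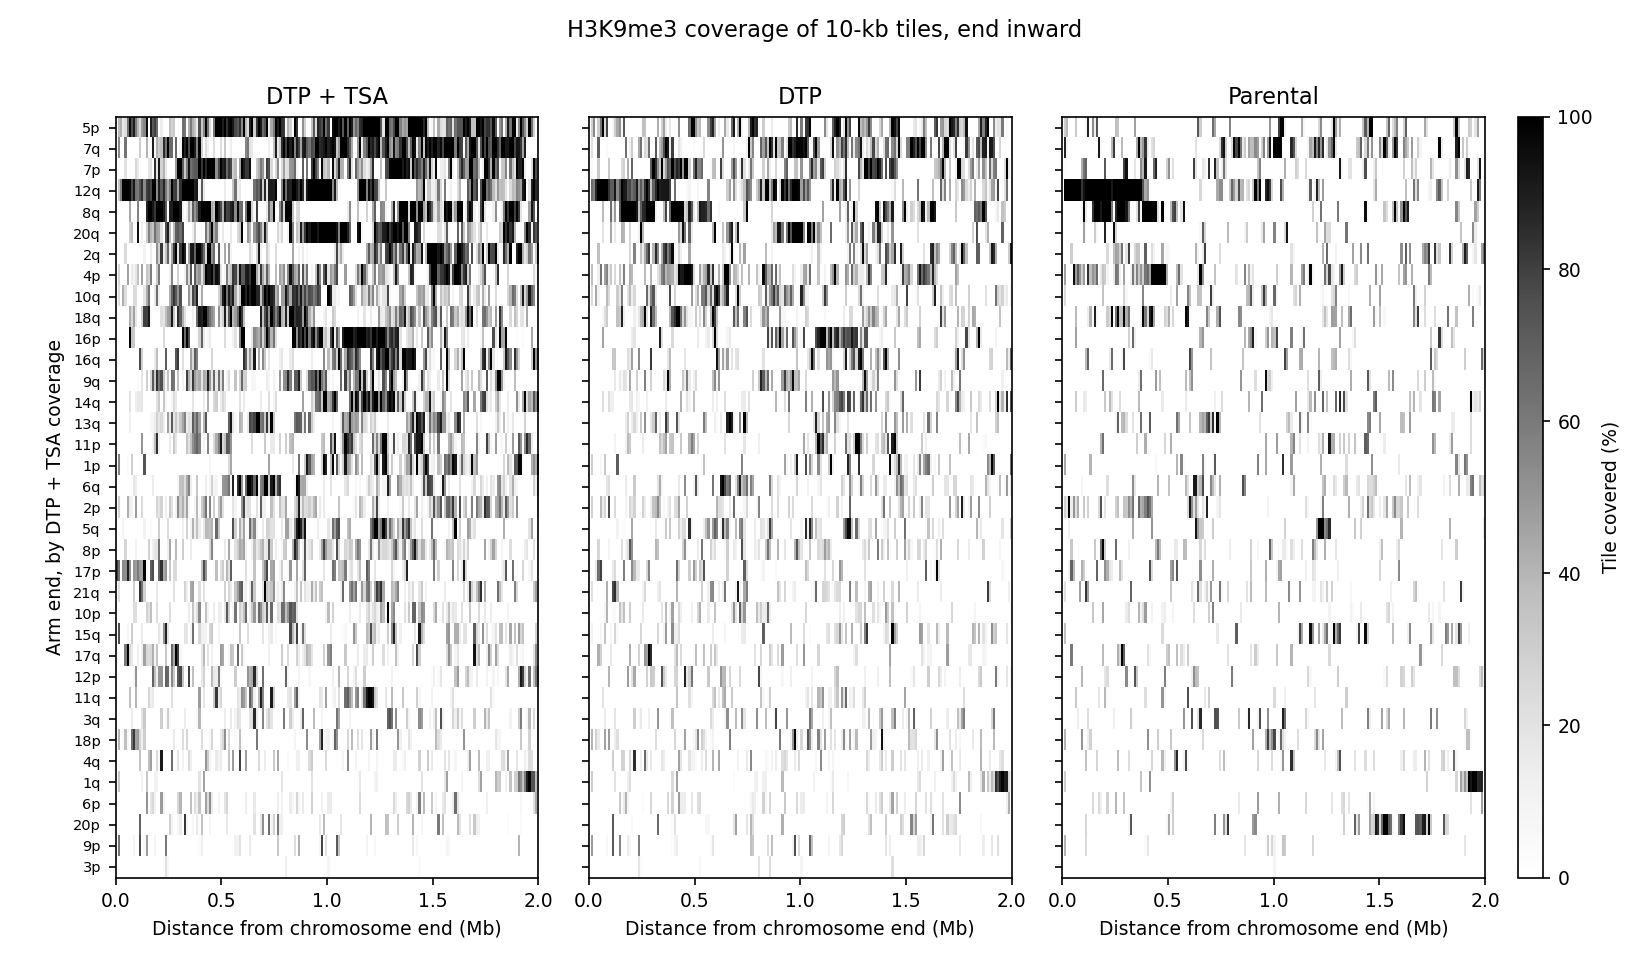
Covered share of each 10-kb tile (grey scale, %) by distance from the chromosome end (x axis, Mb) in DTP + TSA, DTP and parental cells, with 1 row per arm end ordered by its DTP + TSA share (5p at the top, 3p at the bottom). The long dark stretches at 16p, 20q and 5p in DTP + TSA stand where DTP holds shorter ones and parental cells little, and the 12q block next to the end is darkest in parental cells.

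The tile map showed that the gain was made of filled stretches and of scattered tiles alike. In DTP + TSA 51.2% of arm-end tiles were empty, in DTP 67.4% and in parental cells 80.7%, and 3383 tiles, 47.0%, were empty in all 3 libraries. Tiles with at least 5 kb covered made up 21.1% in DTP + TSA, 10.3% in DTP and 6.40% in parental cells, where the rest of the same autosomes had 2.83%, 2.74% and 2.78%. Tiles of this density were therefore about equally common in the 3 libraries away from the ends, and differed in number at the ends. Consecutive tiles of this density over at least 100 kb formed 22 runs at 12 arm ends in DTP + TSA, 4 runs at 3 arm ends in DTP and 2 runs at 2 arm ends in parental cells. The longest run in DTP + TSA spanned 270 kb of 16p, from 1070 kb inward. The longest in DTP spanned 280 kb and in parental cells 380 kb, both at 12q from 10 kb inward. Such runs were not counted over the rest of the same autosomes, so no background stands beside them.

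The tiles were also grouped by what they held in the other library. Tiles empty in parental cells averaged 6.66% in DTP cells, against 3.11% for such tiles further in. Tiles empty in DTP cells averaged 10.5% in DTP + TSA, against 1.47% further in. Arm-end tiles with at least 5 kb in parental cells averaged 61.4% in DTP and 76.0% in parental cells, and further in 35.6% and 72.6%, so dense parental tiles were thinner in DTP in both places and less so at the ends. Such tiles chosen in DTP cells went the other way at the ends: they averaged 81.4% in DTP + TSA and 76.0% in DTP, against 53.7% and 66.1% further in. Of the 742 dense DTP tiles at arm ends, 673, or 90.7%, were also dense in DTP + TSA, and of the 461 dense parental tiles 305, or 66.2%, were dense in DTP. A tile chosen as dense in one library tends to be lower in any second library, so part of each such fall is fixed by the choice. Empty tiles can in turn differ in 1 direction alone, and the part that the higher interval density of arm ends has in their values was not tested.

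Gained length was divided into widening, which lies in an interval that overlaps at least 1 bp of an interval of the other library, and new intervals, which overlap none. DTP cells gained 5.39 Mb over parental cells at the arm ends, of which 1.45 Mb was widening and 3.94 Mb, or 73.1%, was in new intervals. New intervals held 85.4% of the gain in the rest of the same autosomes, so widening took a larger part at the ends under this rule. Parental coverage was also higher at the ends, 8.10% against 3.99%, and its part in the split was not tested. The split varied with the overlap rule, and the rest was split under the main rule alone. DTP + TSA cells gained 8.63 Mb over DTP cells, of which 3.22 Mb was widening and 5.42 Mb, or 62.7%, was in new intervals, against 68.6% in the rest. By arm end the share of new intervals in the DTP gain ran from 45.2% at 7q to 100% at 3p with a median of 79.1%, and in the DTP + TSA gain from 0% at 3p to 87.2% at 13q with a median of 64.1%.

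**Figure D3:**
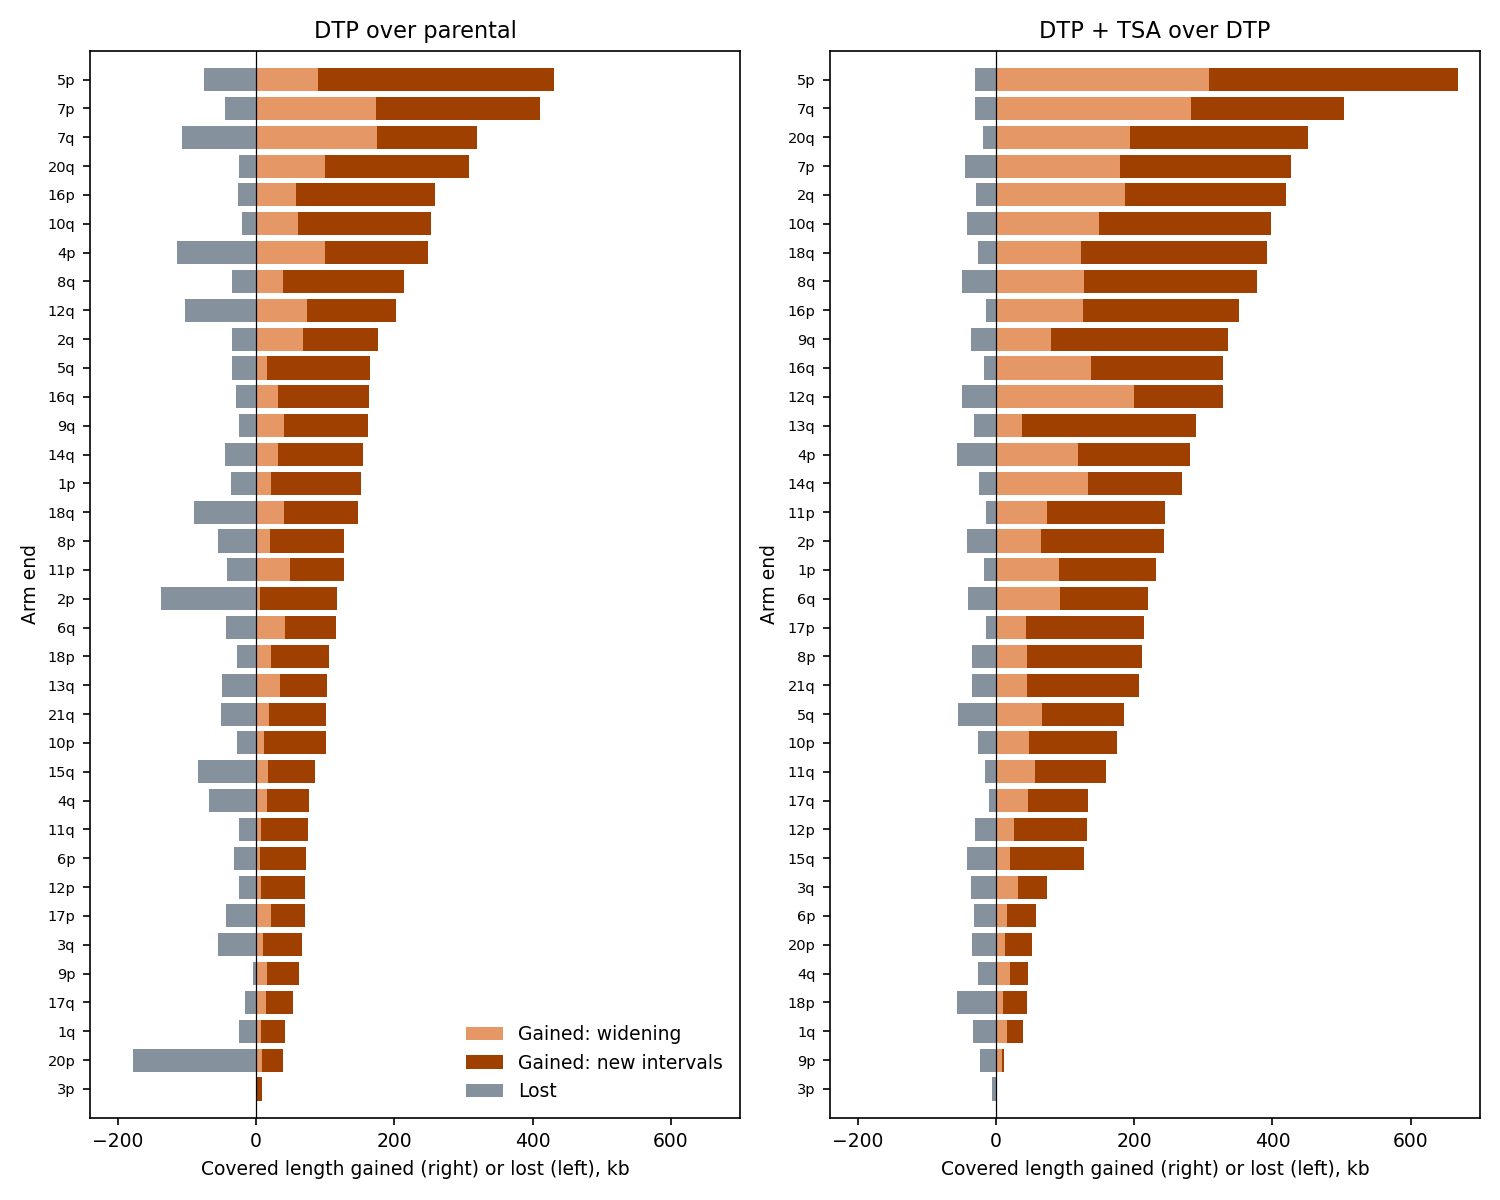
Covered length gained (right of 0, kb; light for widening, dark for new intervals) and lost (left of 0, grey) at each arm end for DTP over parental (left panel) and DTP + TSA over DTP (right panel), ordered by the length gained in each panel. Losses exceed gains at 20p and 2p in the left panel, and at 18p, 9p and 3p in the right panel.

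Length was also lost at arm ends, as a smaller part of the covered length than elsewhere. Counted in tiles, the DTP losses were near the background, 3.61% against 3.8%. The DTP library lacked 1.84 Mb that was covered in parental cells, 0.997 Mb trimmed from intervals still present and 0.842 Mb in whole intervals. It kept 3.995 Mb, or 68.5% of the parental length, against 45.5% in the rest. The DTP + TSA library lacked 1.13 Mb of the DTP length and kept 8.26 Mb, or 87.98%, against 66.3% in the rest. Of the 19.2 Mb of arm ends covered in any library, DTP + TSA alone covered 41.4%, DTP alone 4.57% and parental cells alone 5.92%. In the rest of the same autosomes these shares were 18.1%, 15.5% and 21.2%. All 3 libraries shared 19.5% of the arm-end length, and DTP and DTP + TSA without parental cells 23.6%.

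Counted as intervals, 1590 of the 2944 DTP + TSA intervals at arm ends overlapped a DTP interval, 54.0% with an exact 95% binomial interval of 52.2% to 55.8%, against 67.0% in the rest. Of the 1863 DTP intervals, 1656 overlapped a DTP + TSA interval, 88.9% (87.4% to 90.3%), against 70.6% in the rest. For DTP against parental cells, 806 of 1863 DTP intervals overlapped a parental one, 43.3% (41.0% to 45.5%), against 33.3%, and 748 of 970 parental intervals overlapped a DTP one, 77.1% (74.3% to 79.7%), against 62.3%. These binomial ranges treat the intervals of 1 library as independent, which neighbouring intervals need not be, and leave out the variation between cultures. They are no test of the difference from the rest.

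New intervals were shorter than shared ones and lay nearer to existing intervals than new intervals elsewhere did. New DTP intervals had a median of 2800 bp, against 4800 bp for DTP intervals shared with parental cells, and lay a median of 20.4 kb from the nearest parental interval, against 45 kb for new intervals further in. New DTP + TSA intervals had a median of 3000 bp, against 4400 bp for shared ones, and lay a median of 10.2 kb from the nearest DTP interval, against 19.6 kb further in. Within 5 kb of a DTP interval lay 30.4% of them, against 18.1% further in. Arm ends are denser in intervals to begin with, and the part this density has in the shorter distances was not tested. Some of the widening closed gaps: 130 DTP + TSA intervals, 8.18% of the shared ones, spanned at least 2 DTP intervals and up to 7 of them, against 2.40% in the rest. They held 0.737 Mb of the 3.22 Mb added to shared intervals. For DTP over parental cells 33 intervals did so, 4.09% of the shared ones, against 2.39% in the rest.

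Intervals were longer at arm ends than elsewhere in each library. Their median length was 3600 bp in DTP + TSA, 3600 bp in DTP and 4400 bp in parental cells, against 2400, 2400 and 3800 bp in the rest. Intervals over 16 kb numbered 160 in DTP + TSA, 5.43% of those at arm ends, 59 in DTP, 3.17%, and 31 in parental cells, 3.20%. In the rest they made up 0.540%, 0.350% and 2.00%. By mean signal, the authors' own value per interval, parental intervals at arm ends ranked high within their list, with a median at the 85.0th percentile, whereas those of DTP + TSA lay at 58.8 and those of DTP at 59.7. Arm-end intervals thus ranked higher within the parental list than within either persister list.

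Single intervals show both forms of gain. At 3p the longest new DTP interval was chr3:854401-856600, 2.2 kb long, and it was absent again from DTP + TSA cells. The longest widened DTP interval at 20q, chr20:62010201-62067800 in hg19, was 57.6 kb long, of which 5.6 kb was covered in parental cells, and lay 958 kb from the end. The longest new one there, chr20:61972801-61995600, was 22.8 kb long. At 16p the longest new DTP interval, chr16:1089201-1121000, spanned 31.8 kb with no parental interval in it. Both arm ends also held small losses, such as the 7 kb parental interval chr16:996001-1003000. At 20p the longest interval lost in DTP cells was chr20:1484601-1498400, 13.8 kb long, inside the stretch described above.

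With TSA, the longest widened interval at 11q was chr11:133794001-133825600, 31.6 kb long with 7 kb covered in DTP cells. At 16q it was chr16:88982201-89007000, 24.8 kb long with 11.4 kb covered in DTP cells. The longest new DTP + TSA interval was chr17:705601-717800 at 17p and chr11:134263401-134275600 at 11q, each 12.2 kb long. At 17p, unlike 11q and 16q, no DTP interval was wholly lost with TSA.

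**Figure D4:**
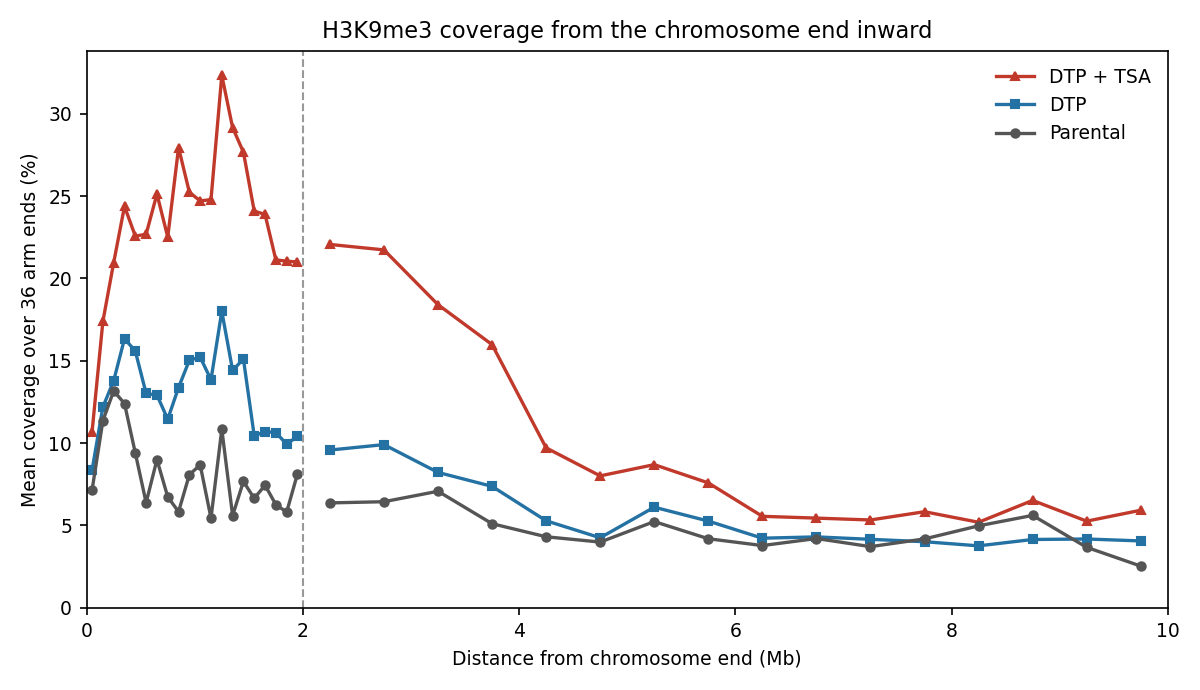
Mean covered share over the 36 arm ends (y axis, %) by distance from the chromosome end (x axis, Mb), in 100-kb steps up to 2 Mb (dashed line) and 500-kb steps beyond, for DTP + TSA (red triangles), DTP (blue squares) and parental cells (grey circles). The DTP + TSA curve is highest at 1.2 to 1.3 Mb with 32.3% and falls to 9.71% at 4 to 4.5 Mb, past the 2-Mb limit.

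From the end inward, coverage was lowest next to the end in both persister states and higher over the next 300 kb. In the outermost 100 kb the mean share was 10.7% in DTP + TSA, 8.36% in DTP and 7.15% in parental cells. Distance is counted from the nominal end, and each share is taken over the whole length, unassembled bases included. The outermost 10 kb had a mean of 2.44% in DTP + TSA, 0.22% in DTP and 0.08% in parental cells, and a median of 0% in each. The DTP + TSA share there was above that of DTP at 1 arm end, 17p. Its outermost interval lay 1.2 kb from the end in DTP + TSA and 38.4 kb from it in DTP. The part of unassembled sequence in the low values next to the end was not tested. The parental profile was highest at 200 to 300 kb, with 21.0% in DTP + TSA, 13.8% in DTP and 13.2% in parental cells. The profiles of DTP + TSA and DTP were highest at 1200 to 1300 kb, with 32.3% in DTP + TSA, 18.001% in DTP and 10.8% in parental cells. The parental maximum near the end rests on few arm ends: the median over arm ends at 200 to 300 kb was 15.6% in DTP + TSA, 6.6% in DTP and 4.2% in parental cells, and the parental median was highest, at 7.1%, at 1200 to 1300 kb.

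The limit of 2 Mb did not mark a step. From 1.9 to 2.0 Mb the mean share was 21.0% in DTP + TSA, 10.41% in DTP and 8.13% in parental cells, and just beyond, from 2.0 to 2.5 Mb, it was 22.1%, 9.58% and 6.37% in the same order. In 500-kb steps the DTP + TSA over DTP ratio was larger just beyond the limit than inside it. It was 2.30 from 2 to 2.5 Mb, 2.17 from 3.5 to 4 Mb and 1.88 from 4.5 to 5 Mb, against 2.13 from 1.5 to 2 Mb. Inside the limit, the 100-kb step from 1.5 to 1.6 Mb had 2.31. From 3.5 to 4 Mb the shares were 15.98% in DTP + TSA, 7.37% in DTP and 5.11% in parental cells, and from 4 to 4.5 Mb 9.71%, 5.29% and 4.31%. From 9.5 to 10 Mb they were 5.92%, 4.06% and 2.53%, where the pooled shares of the rest were 5.34% in DTP + TSA, 5.18% in DTP and 3.99% in parental cells.

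In steps of 500 kb, the outermost differed from the others. From 0 to 0.5 Mb the pooled share was 19.2% in DTP + TSA, 13.3% in DTP and 10.7% in parental cells, with ratios of 1.24 for DTP over parental and 1.45 for DTP + TSA over DTP. From 0.5 to 1 Mb the ratios were 1.83 and 1.88, from 1 to 1.5 Mb 2.00 and 1.81, and from 1.5 to 2 Mb 1.52 and 2.13. The largest net gain of DTP over parental cells fell in the outermost 500 kb at 6 of the 36 arm ends and in the step from 1.5 to 2 Mb at 4, and that of DTP + TSA over DTP at 4 and 12.

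The small ratio next to the end rested in part on 3 arm ends, 12q, 8q and 4p. They had the 3 highest parental shares in the outermost 500 kb, 76.8% at 12q, 52.8% at 8q and 42.6% at 4p, with 18q next at 25.2%. Each carries zinc finger genes among its outermost genes, in the current RefSeq order: ZNF268, ZNF10, ZNF891, ZNF140 and ZNF84 at 12q, ZNF16, ZNF250, ZNF7 and ZNF517 at 8q, and ZNF595, ZNF718 and ZNF141 at 4p. Zinc finger genes are also among the outermost genes of other ends with little coverage there, such as ZNF692 and ZNF672 at 1q, where the outermost 250 kb was 3.84% covered in DTP + TSA, 3.44% in DTP and 1.2% in parental cells. Many KRAB zinc finger proteins bind and repress transposable elements. Over the outermost 500 kb of these 3 ends the share was 50.3% in DTP + TSA, 50.3% in DTP and 57.4% in parental cells, ratios of 1.00 for DTP + TSA over DTP and 0.88 for DTP over parental. From 0.5 to 1 Mb the same 3 ends had 48.3% in DTP + TSA, 27.2% in DTP and 13.01% in parental cells. The 3 ends were picked for their high parental share, so part of the ratio below 1 is fixed by that choice. Their neighbouring 500 kb had more coverage in DTP than in parental cells and more again in DTP + TSA.

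The 3 ends were not alike. At 12q the outermost 250 kb was 73.6% covered in DTP + TSA, 77.6% in DTP and 94.8% in parental cells. From 0.75 to 1 Mb it was 82.6% covered in DTP + TSA, 66.2% in DTP and 40.8% in parental cells. At 8q the outermost 250 kb had 41.0%, 45.4% and 42.5%, the next 250 kb 71.4%, 64.2% and 63.1%, and the step from 0.75 to 1 Mb 22.1%, 1.12% and 0%, in the same order of states. The outermost 500 kb of 8q was thus covered more, not less, in the persister states.

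**Figure D5:**
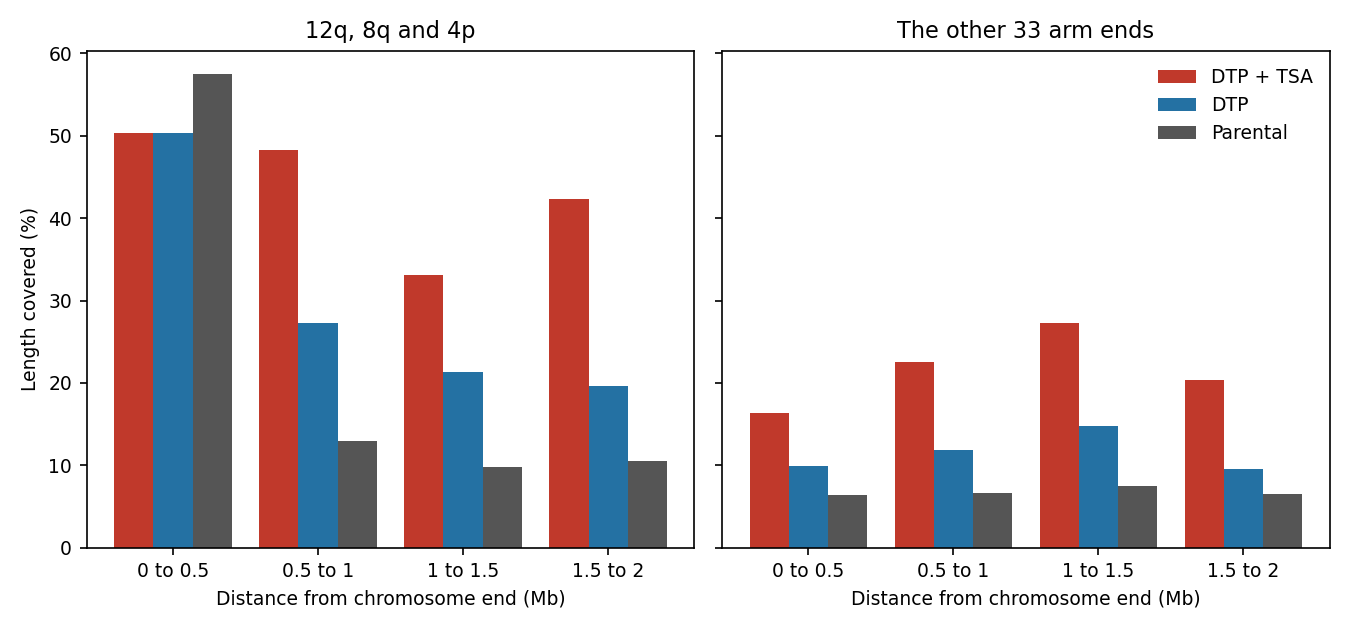
Covered share (y axis, %) in 500-kb steps of distance from the chromosome end (x axis, Mb) for 12q, 8q and 4p together (left) and for the other 33 arm ends (right); bars are DTP + TSA (red), DTP (blue) and parental cells (grey), 1 library each. In the outermost step the left panel has 50.3% in DTP + TSA, 50.3% in DTP and 57.4% in parental cells, and the right panel 16.4%, 9.89% and 6.45%.

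Without these 3, which were set aside after their values were seen, the outermost 500 kb of the other 33 arm ends had 16.4% in DTP + TSA, 9.89% in DTP and 6.45% in parental cells. Its ratios were 1.53 for DTP over parental and 1.66 for DTP + TSA over DTP, still the lowest of the 4 steps for TSA, whereas for DTP over parental the step from 1.5 to 2 Mb, at 1.47, was lower. From 1 to 1.5 Mb the 33 arm ends had 27.2% in DTP + TSA, 14.8% in DTP and 7.45% in parental cells, ratios of 1.98 for DTP over parental and 1.84 for DTP + TSA over DTP.

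Next to the assembled end, the outermost interval was often the same in the 3 libraries. It lay within 11 kb of the end at 14 arm ends in DTP + TSA, 13 in DTP and 13 in parental cells, and 13 of these were shared by all 3: 1p, 1q, 2p, 4p, 5p, 7p, 7q, 9p, 10q, 12q, 15q, 18p and 21q. At many hg19 chromosome ends the assembled sequence begins about 10 kb from the nominal end, where telomeric and duplicated sequence is found. Where it begins was not checked end by end. These outermost intervals had a median length of 2400 bp in DTP + TSA, 2200 bp in DTP and 2400 bp in parental cells. Their mean signal lay at a median percentile of 99.6 in DTP + TSA, 99.6 in DTP and 98.3 in parental cells within each list. At 20 arm ends the outermost intervals of the 3 libraries began within 1 kb of each other. The farthest outermost interval was at 3p, 238 kb from the end in DTP + TSA, 238 kb in DTP and 1002 kb in parental cells.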

How the data were processed

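H3K9me3 intervals of 3 ChIP-seq libraries, DTP + TSA, DTP and parental, were used as the authors deposited them. Per the file headers each interval has a start, an end, a bin count and a peak and an average signal value, whose scaling is not stated. BWA, SICER, hg19 and dm3 are named in the submitters' processing notes without versions or roles. Starts and ends lie on a 200-bp grid, the smallest gap within a list is 800 bp, and no interval passes a chromosome end. The sources used here give neither the depth nor the calling threshold. Because each list was called on its own library, a difference in depth or threshold moves the covered length of the whole list. The rest of the same autosomes is given beside the main results for that reason.

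Covered length was summed per 10-kb tile, 2-Mb window and arm end with Python 3.11.15, numpy 2.4.6 and pandas 2.3.3, and figures were drawn with matplotlib 3.10.9. Exact binomial intervals came from scipy 1.17.1. Chromosome lengths were taken from GenomeInfoDb 1.38.1 and bands from circlize 0.4.16. The interval arithmetic was tested on constructed intervals with known answers and on a sample of 5000 real DTP intervals altered by known amounts. The text names the 6 arm ends with the highest and the 4 with the lowest ratio in each comparison, with the longest widened, new and lost interval of the 3 highest, and 20p, 2p and others for their loss or length. Arm ends with under 20 kb in the library below the line were marked as resting on little length. Genes were assigned to arm ends by name from RefSeq for GRCh38 and were not tested for overlap, and no GRCh38 position is printed. The arm ends, gene names and thresholds were chosen with earlier results of these data known. With 1 library per state no p-value was computed. Alternatives took an equal number of intervals per list, the upper part of each list, joined intervals, other region limits and other overlap rules. Joined intervals under 1 kb were left out, except in the split of gained length.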

Additional observations from a re-analysis of the deposited data

How the results depend on the processing

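No paired analysis was possible because each state has 1 library and no replicate. With 1 library per state, the intervals of a list reflect its depth and threshold as well as the chromatin, and depth is unknown. The number of arm ends at which DTP exceeded parental cells, 34 as reported, depended on how the lists were cut. It was 16 when each list was cut to its top 23842 intervals by mean signal and 26 by summit value. With the upper part of each list it was 24. For DTP + TSA over DTP the number was 31 to 33 under every alternative run. The windows further in were not counted under these alternatives.

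The pooled DTP over parental ratio was 1.08 with equal numbers by mean signal, 1.31 by summit, 1.30 with the upper part, 1.67 after joining intervals within 5 kb, 1.48 for the outer 1 Mb and 1.63 without the outermost 100 kb. The DTP + TSA over DTP ratio was 1.70, 1.69, 1.79, 1.88, 1.66 and 1.82 in the same order. In alternatives added after the data were seen, the pair was 1.66 and 1.83 without 12q, 1.70 and 1.88 without 12q, 8q and 4p, and 1.66 and 1.81 without 20p. These ratios were also divided by the ratio of the rest of the same autosomes. DTP over parental was then 1.24 as reported, 1.58 with equal numbers by mean signal, 1.65 by summit, 0.99 with the upper part and 1.25 after joining. DTP + TSA over DTP was 1.75, 1.91, 1.83, 1.83 and 1.79 in the same order. The cause was not tested.

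Tiles gained numbered 497 for DTP over parental and 749 for DTP + TSA over DTP with equal numbers, 542 and 834 with the upper part, 417 and 560 in the outer 1 Mb, and 282 and 491 with at least 5 kb and 4 times, where fewer tiles can qualify. Tiles lost numbered 451 for DTP over parental with equal numbers, 124 and 53 in the outer 1 Mb, and 57 and 13 under the stricter rule. The tiles further in were not counted under these alternatives, so no background stands beside these counts. The share of gained length in new intervals was 64.6% and 55.1% with equal numbers, 54.2% and 31.8% after joining, 88.2% and 80.2% when an overlap of 50% was needed, and 58.3% and 42.6% when an interval within 5 kb counted as widening.

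Among the 10 arm ends named in each comparison, 6 of 58 DTP over parental values and 6 of 60 DTP + TSA over DTP values moved to the other side of 1. For DTP over parental these were 15q, at 0.475 with equal numbers, 0.607 by summit, 0.760 with the upper part and 0.995 without the outermost 100 kb, and 4q, at 0.741 with equal numbers and 0.750 by summit. For DTP + TSA over DTP they were 18p, at 1.24 in the outer 1 Mb, 1q, at 0.9997 by summit and 0.813 in the outer 1 Mb, and 3p, at 1.36 with equal numbers, 1.21 by summit and 1.36 with the upper part. For DTP over parental, 3p had no value in the outer 1 Mb, where parental cells had no interval. It also had none after joining, since joined intervals under 1 kb were left out and its 1 parental interval was 0.8 kb long. Of the 6 highest arm ends, 3 to 6 stayed among the 6 highest for DTP over parental and 2 to 5 for DTP + TSA over DTP.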
